A study of Homo sapiens with 4 samples.

Results

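The chromodomain helicase DNA-binding (CHD) family was examined in MV4-11, a human acute myeloid leukemia cell line, by RNA-seq. Its 9 genes, CHD1, CHD1L, CHD2, CHD3, CHD4, CHD6, CHD7, CHD8 and CHD9, are 9 of 16490 genes in the deposited table and were found by symbol, over 16 RefSeq transcripts. The family was chosen by the decrease of CHD3 that was already known from these same libraries, so the values of its members in the knockdown comparison are given as a description, with no p-value. CHD5 is outside the 9 genes and was listed at 0.0713 to 0.133 FPKM in the 4 libraries. FPKM is a count of fragments scaled by transcript length and by the mapped reads of the library, so that levels of different genes can be compared.

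All 4 libraries came from MV4-11 cells infected with a pLKO.1-puro lentivirus and selected with puromycin. There were 2 libraries of control cells with the hairpin sh-NC, which keep CEBPG, and 2 libraries of cells with sh-CEBPG#3, which knocks it down. The knockdown libraries carry 1 CEBPG hairpin, so effects of CEBPG loss and of that hairpin cannot be told apart, and the labels do not tell whether replicate libraries were infected separately. The spread between them may therefore be technical.

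CHD proteins share an ATPase motor of the SNF2 type that slides or spaces nucleosomes, and most carry a pair of chromodomains that read the histone tail. CHD1 and CHD2 act in transcribed chromatin, and CHD1 binds histone H3 methylated on lysine at active promoters. CHD3 and CHD4, also called Mi-2 alpha and Mi-2 beta, are alternative motors of the NuRD complex, which joins nucleosome remodeling to histone deacetylation and takes part in blood cell differentiation. CHD6, CHD7, CHD8 and CHD9 form a further branch, while CHD1L (ALC1) lacks chromodomains and is activated by poly(ADP-ribose) at DNA breaks.

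CEBPG itself was at 30.4 and 33.6 FPKM in control cells and at 19.2 and 17.1 FPKM upon knockdown, which matches the labels. The FPKM total of a library lay between 364353 and 389766. All 10 myeloid and leukemia markers were at 3.29 FPKM or more in every library. Of the markers of other cell types, GATA1 (erythroid cells) and COL1A1 (fibroblasts) were at 0.0781 FPKM or less, PAX5 (B cells) at 1.32 to 2.21 FPKM and PECAM1, which endothelial cells and monocytes share, at 18.5 to 43.4 FPKM. The summed level of the 10 myeloid and leukemia markers was 904 and 983 FPKM in sh-NC cells and 3560 and 3390 FPKM in sh-CEBPG#3 cells, mostly from LYZ, the lysozyme of monocytes (567 and 610 against 3130 and 2980 FPKM). The list did not move 1 way. MEIS1 (48.0% of the control level), HOXA9 (77.6%) and FLT3 (90.3%), which mark leukemic stem and progenitor cells, were lower without overlap, and the other 7 markers were higher without overlap. The part of these marker differences in those of the CHD genes was not tested, and in bulk RNA fewer cells of a type and less RNA per cell cannot be told apart.

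CHD3 was the member with the largest difference between the groups. Its locus is chr17:7884796-7912760, plus strand (GRCh38, GENCODE v44). Its level was 24.8 and 26.3 FPKM in control cells and 12.3 and 11.8 FPKM upon CEBPG knockdown. Both knockdown libraries were thus below both controls, and the libraries of a group lay close to each other. The means were 25.6 ± 1.07 FPKM and 12.1 ± 0.311 FPKM (SD, n = 2 each), which leaves 47.2% of the control mean. On the log2(FPKM + 1) scale the fold change was -1.02 with a standard error of 0.08, at rank 117 from the lowest of 12142 genes tested. Leaving out 1 library at a time gave -1.07 to -0.98 on this scale, where the added 1 FPKM makes the change smaller. With 0.1 or 0.01 FPKM added in place of 1, the log2 fold change over all 4 libraries was -1.08.

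CHD4 (chr12:6570082-6614524, minus strand), the other NuRD motor, was the most abundant member, and its difference was smaller. It had 38.7 and 42.8 FPKM in sh-NC cells and 34.8 and 35.0 FPKM in sh-CEBPG#3 cells. The groups did not overlap, and 85.6% of the control level remained (log2 fold change -0.22, standard error 0.08). CHD3 made up 39.0% and 38.1% of the summed FPKM of CHD3 and CHD4 in control cells and 26.1% and 25.2% upon knockdown. The mRNA pool of the NuRD motors thus held a smaller share of CHD3 in both knockdown libraries.

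CHD1L and CHD7 were lower by similar proportions. CHD1L (chr1:147242654-147295765, plus strand) had 31.9 and 37.1 FPKM in sh-NC cells and 28.9 and 27.1 FPKM in sh-CEBPG#3 cells, which is 81.1% of the control level (log2 fold change -0.29, standard error 0.09). CHD7, the gene mutated in CHARGE syndrome, had 7.82 and 8.01 FPKM against 6.79 and 6.07 FPKM, which is 81.3% (log2 fold change -0.26, standard error 0.09). For both genes the knockdown libraries lay below the controls without overlap.

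CHD1 and CHD2 were not called in either direction. CHD1 (chr5:98853985-98929007, minus strand) had 9.73 and 10.9 FPKM in sh-NC cells and 9.69 and 9.14 FPKM in sh-CEBPG#3 cells (log2 fold change -0.12, standard error 0.09). CHD2 (chr15:92886203-93027996, plus strand) had 6.90 and 7.85 FPKM against 6.65 and 6.05 FPKM (log2 fold change -0.19, standard error 0.10). The groups did not overlap for either gene, but for CHD1 the nearest libraries of the 2 groups were almost level, at 9.73 and 9.69 FPKM.

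CHD8 (chr14:21385194-21456126, minus strand), which binds beta-catenin, had the only higher values without overlap among the 9 genes. It had 8.67 and 9.11 FPKM in sh-NC cells and 10.1 and 9.28 FPKM in sh-CEBPG#3 cells (log2 fold change 0.11, standard error 0.09). CHD6 (chr20:41402083-41618384, minus strand) had 3.38 and 3.61 FPKM against 3.83 and 3.25 FPKM (0.01, standard error 0.11), and its groups overlapped. CHD9 (chr16:53054991-53329150, plus strand) also overlapped, with 3.85 and 4.13 FPKM against 3.97 and 3.15 FPKM (-0.14, standard error 0.12). These last 2 genes were the least expressed members in both groups.

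**Figure D1:**
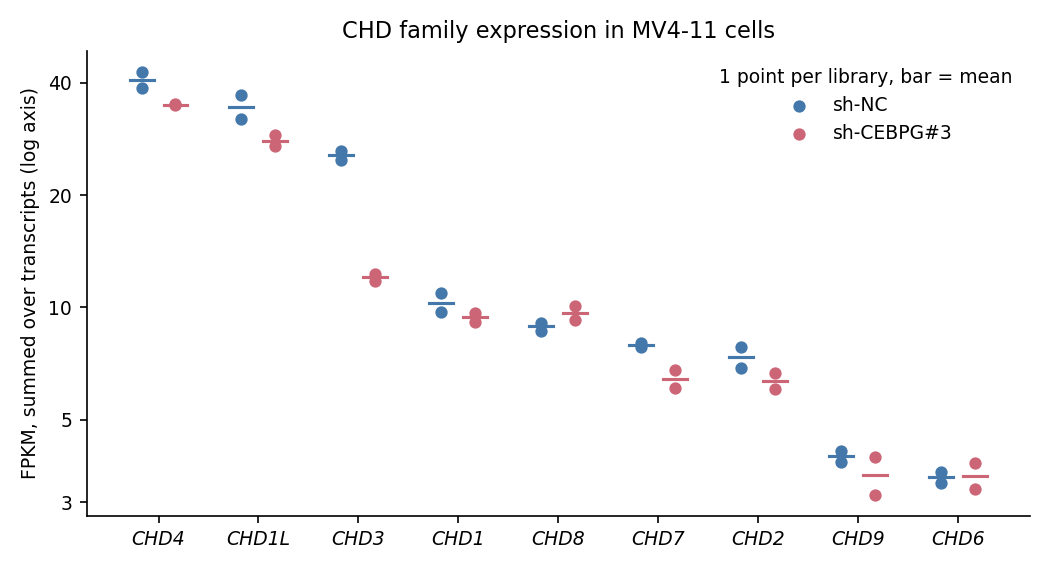
FPKM of each CHD member, summed over its transcripts, on a log axis, with 1 point per library and a bar at the group mean of 2 libraries (sh-NC blue, sh-CEBPG#3 red). CHD3 drops from a mean of 25.6 to 12.1 FPKM, while the other members stay between 81.1% and 109% of their control level.

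Ranked by mean FPKM in sh-NC cells, the order was CHD4 (40.8), CHD1L (34.5), CHD3 (25.6), CHD1 (10.3), CHD8 (8.89), CHD7 (7.91), CHD2 (7.37), CHD9 (3.99) and CHD6 (3.50). Among neighbours in this order, only CHD7 and CHD2 had overlapping library values. In sh-CEBPG#3 cells CHD3 kept the third place at 12.1 FPKM, but its distance to the next gene shrank, and CHD8 (9.69) came before CHD1 (9.42), with overlapping values. CHD7 and CHD2, and CHD9 and CHD6, also overlapped there. CHD3 held 18.3% and 17.6% of the summed FPKM of the 9 genes in control cells and 10.5% and 10.7% upon knockdown. The sum of the other 8 genes was 111 and 124 FPKM against 105 and 99.1 FPKM.

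Across all 12142 genes tested, 23.8% were called lower and 18.5% higher at an adjusted p under 0.05 in limma. All 9 CHD genes passed the filter on low values, and 4 were called lower, namely CHD3, CHD1L, CHD4 and CHD7. None was called higher in limma, and none of the higher ones had an unadjusted p under 0.05. The study set limits on fold change and P in DESeq2, without stating whether P was adjusted. A limit of the same form was applied here in limma, namely a log2 fold change below -1 with an unadjusted p under 0.05. On the log2(FPKM + 1) scale it is stricter for low genes, so its counts cannot be set beside those of the study. This limit was passed by 1.05% of all genes and by CHD3 alone among the 9. Of all genes, 40.2% were lower and 31.5% higher without overlap between the groups, against 6 and 1 of the 9 genes. The median log2 fold change of the 9 genes was -0.19 and that of all genes was -0.038. As the family was picked on this comparison, these counts carry no weight as evidence on the family. Without sh-NC replicate 2, and likewise without sh-CEBPG#3 replicate 2, CHD3 was the 1 member still called lower. Without sh-CEBPG#3 replicate 1 these were CHD3 and CHD7, and without sh-NC replicate 1 they were CHD3, CHD1L and CHD4.

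Transcripts were then compared within each gene. The 2 listed CHD3 transcripts kept their proportions, with NM_001005271 at 98.5% and 98.1% of the summed FPKM in control cells and 98.9% and 97.5% upon knockdown. This transcript had a mean of 25.1 FPKM in sh-NC and 11.8 FPKM in sh-CEBPG#3 cells, and the minor NM_005852 was at 0.368 and 0.492 FPKM against 0.129 and 0.293 FPKM. The lower level of CHD3 was therefore that of its main listed transcript. RefSeq now lists further CHD3 transcripts that the deposited table does not hold, and their reads cannot be told apart here.

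CHD4 was split about evenly between NM_001273 (47.8% and 56.0% in sh-NC, 49.7% and 49.2% in sh-CEBPG#3) and NM_001297553. CHD9 was also split about evenly, with NM_025134 at 48.9% and 57.2% in sh-NC cells and 54.1% and 45.2% in sh-CEBPG#3 cells, and NM_001308319 holding the rest. In CHD1L the transcript NM_004284 held at least 96.5% in every library, and in CHD2 the transcript NM_001271 held at least 98.6%. CHD1, CHD6 and CHD7 have 1 listed transcript each.

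CHD8 stood apart from the other members in its transcripts. NM_020920 was at 0.205 and 4.66 FPKM in control cells and at 6.99 and 2.07 FPKM upon knockdown. NM_001170629 had 8.46 and 4.46 FPKM against 3.11 and 7.20 FPKM. One transcript was high where the other was low. The libraries of a group disagreed more than the group means, where NM_020920 held 26.7% in sh-NC and 45.8% in sh-CEBPG#3 cells. The share of NM_020920 thus differed by 48.8 percentage points between the sh-NC libraries and by 46.8 points between the sh-CEBPG#3 libraries, while the summed level of CHD8 stayed between 8.67 and 10.1 FPKM. With this spread, no difference in CHD8 transcript use between the groups can be resolved.

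**Figure D2:**
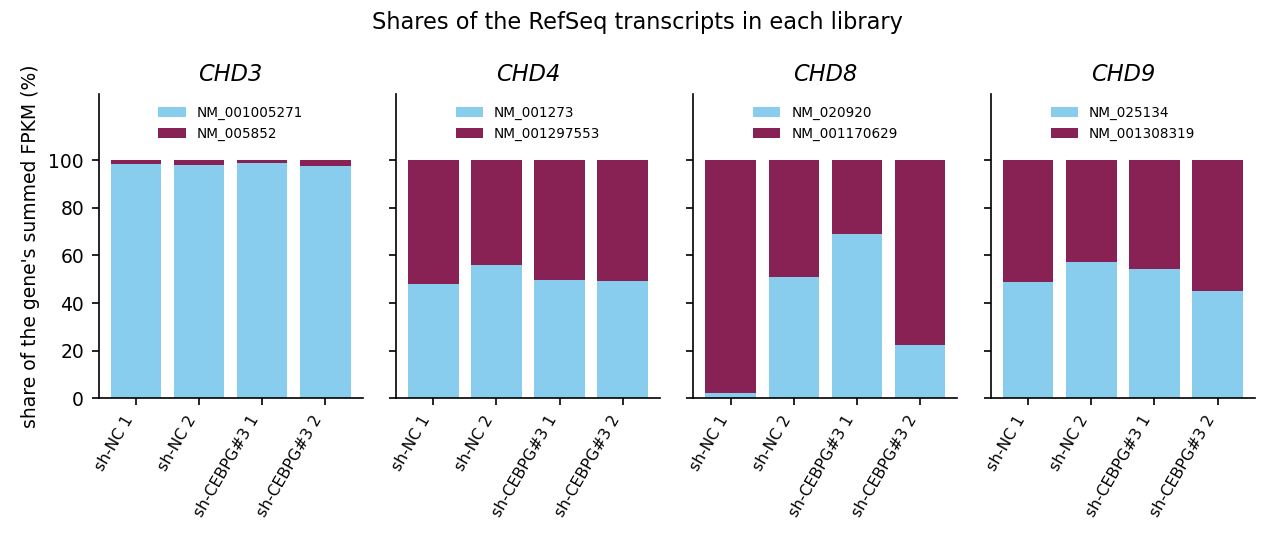
Share of the summed FPKM (percent) held by each listed RefSeq transcript of CHD3, CHD4, CHD8 and CHD9 in each of the 4 libraries. The CHD3 bars are almost all NM_001005271 (97.5% to 98.9%), whereas NM_020920 of CHD8 goes from 2.37% to 51.1% between the sh-NC libraries and from 69.2% to 22.4% between the sh-CEBPG#3 libraries.

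The partners of CHD3 and CHD4 in NuRD were examined next, as a list of 13 known subunits that was drawn up with earlier results of these data known. Of these, 6 fell at an adjusted p under 0.05 in limma with Benjamini-Hochberg adjustment over all genes, none rose (1 was higher at an unadjusted p under 0.05), and 7 did not pass. The median log2 fold change of the list was -0.19. Of all genes tested, 23.8% were called lower and 18.5% higher, against 46.2% lower and none higher in this list. HDAC1, a catalytic deacetylase, fell from 71.8 and 80.3 FPKM to 54.6 and 50.5 FPKM (log2 fold change -0.52, adjusted p = 0.000664). HDAC2, its close relative, had 24.7 and 27.4 FPKM against 25.4 and 23.0 FPKM (-0.10, adjusted p = 0.358), and the groups overlapped.

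The MBD subunits, named for their methyl-CpG-binding domain, also differed from each other in their values. MBD3 fell from 52.2 and 56.3 FPKM to 39.7 and 39.2 FPKM (-0.45, adjusted p = 0.000955), while MBD2 had 5.44 and 5.22 FPKM against 4.63 and 4.96 FPKM (-0.13, adjusted p = 0.304). Among the MTA scaffold subunits, MTA3 fell from 5.61 and 7.52 FPKM to 3.14 and 4.19 FPKM (-0.69, adjusted p = 0.00344). MTA1 (-0.19, adjusted p = 0.0632) and MTA2 (0.17, adjusted p = 0.0829) did not pass, although both passed after equal totals or quantile normalization. The difference between the members of such pairs was not tested.

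The histone chaperones RBBP4 (-0.40, adjusted p = 0.00472) and RBBP7 (-0.31, adjusted p = 0.0143) fell, as did GATAD2A, which links CHD4 to the deacetylase core (-0.34, adjusted p = 0.00918). GATAD2B had a log2 fold change of 0.16 (adjusted p = 0.26), CDK2AP1 of -0.12 (adjusted p = 0.414) and ZMYND8 of 0.11 (adjusted p = 0.373). RBBP7 missed 0.05 in 3 of the 4 fits that each left out a library, and GATAD2A in 1 of them. When the most abundant transcript stood for the gene, HDAC1 and MBD3 still passed, but MTA3 (-0.49, adjusted p = 0.213), RBBP4 (-0.37, adjusted p = 0.0997), RBBP7 (-0.26, adjusted p = 0.164) and GATAD2A (-0.18, adjusted p = 0.318) did not. That transcript fit called 645 of 18624 transcripts lower, against 2884 of 12142 genes in the gene fit. Without a filter on low values, MTA3 (adjusted p = 0.0543) and RBBP7 (adjusted p = 0.0567) also missed 0.05.

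**Figure D3:**
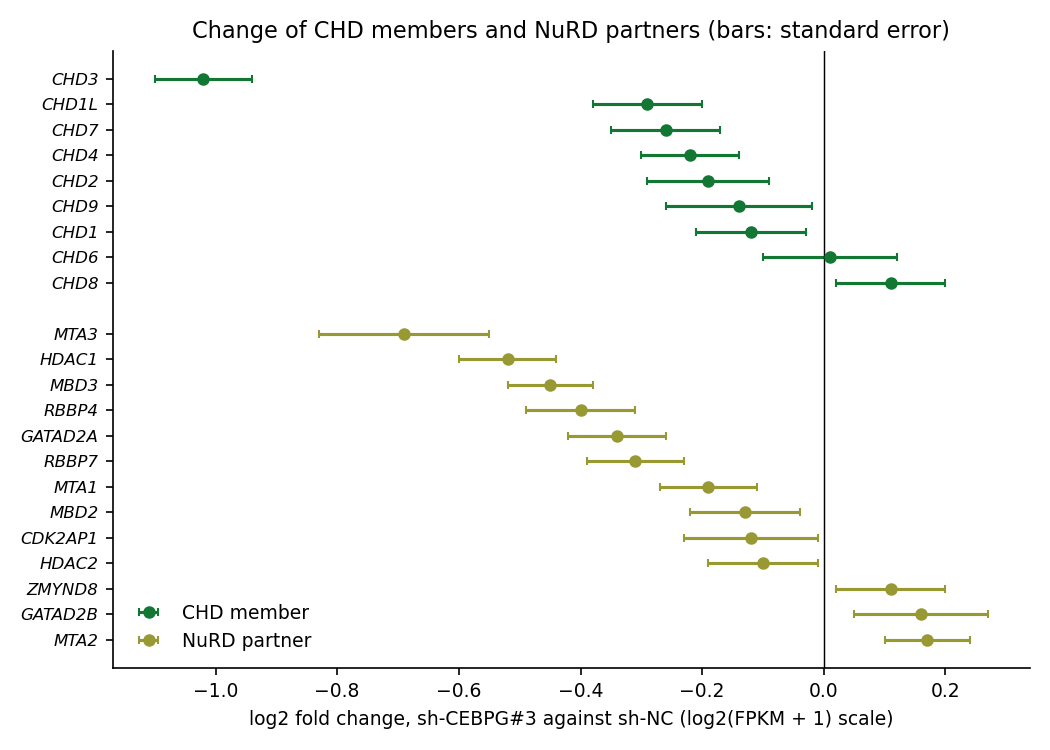
Log2 fold change of sh-CEBPG#3 against sh-NC on the log2(FPKM + 1) scale (horizontal axis) for the CHD members (green) and their NuRD partners (olive), with bars of 1 standard error from limma over 4 libraries. CHD3 lies alone at -1.02, and MTA3 (-0.69) and HDAC1 (-0.52) are the lowest of the partners.

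A list of 11 other CHD partners held 5 genes that fell (45.5%, against 23.8% of all genes) and 1 that rose (9.09%, against 18.5%). SUPT16H, a subunit of the histone chaperone FACT that works with CHD1 in transcribed chromatin, fell from 29.9 and 33.4 FPKM to 10.8 and 10.2 FPKM (log2 fold change -1.50, adjusted p = 1.01e-06). SSRP1, the other FACT subunit, fell from 62.2 and 67.3 FPKM to 46.0 and 46.8 FPKM (-0.47, adjusted p = 0.000685). Of the heterochromatin proteins HP1, CBX1 fell from 27.6 and 30.2 FPKM to 21.1 and 21.0 FPKM (-0.44, adjusted p = 0.00167). CBX5 rose from 12.6 and 12.7 FPKM to 17.9 and 16.2 FPKM (0.40, adjusted p = 0.0035). Its most abundant transcript had the same log2 fold change but did not reach the call (0.40, adjusted p = 0.0662).

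The other nucleosome remodelers give the setting of the CHD family. Of the 24 SWI/SNF subunits, 11 fell (45.8%, against 23.8% of all genes) and 2 rose (8.33%, against 18.5%). SMARCE1 (-1.04, adjusted p = 5.38e-06), SMARCC1 (-0.78, adjusted p = 5.16e-05) and the ATPase SMARCA2 (-0.59, adjusted p = 0.000968) had the largest decreases. The 2 genes that rose were SMARCD3 (0.64, adjusted p = 0.0033) and SMARCD1 (0.34, adjusted p = 0.00823), which encode alternative forms of 1 subunit. SMARCD3 was low, at 0.849 and 0.628 FPKM in sh-NC and 1.76 and 1.64 FPKM in sh-CEBPG#3 cells. Its log2 fold change was 1.12 with a pseudocount of 0.1 and 1.21 with a pseudocount of 0.01. By the most abundant transcript, SMARCA2 (-0.36, adjusted p = 0.197), SMARCD3 (0.64, adjusted p = 0.11) and SMARCD1 (0.33, adjusted p = 0.149) were not called.

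Of the 10 ISWI genes tested, 5 fell (50.0%, against 23.8% of all genes). None rose in limma, against 18.5% of all genes, and none of the higher ones had an unadjusted p under 0.05. CHRAC1 (-0.55, adjusted p = 0.000455), BAZ1B (-0.51, adjusted p = 0.00175) and BPTF (-0.38, adjusted p = 0.0157) were the lowest. Of the 21 subunits of INO80, SRCAP and EP400 complexes, 7 fell (33.3%, against 23.8% of all genes). The ATPase SRCAP (-0.75, adjusted p = 8.16e-05), ZNHIT1 (-0.54, adjusted p = 0.000303) and YEATS4 (-0.52, adjusted p = 0.000675) were the lowest. ACTR5 (0.54, adjusted p = 0.00312) and DMAP1 (0.34, adjusted p = 0.0157) rose, which is 9.52%, against 18.5% of all genes. DMAP1 and BPTF each missed 0.05 in 2 of the 4 fits that left out a library, and also without a filter on low values (adjusted p = 0.0626 and 0.0669). By the most abundant transcript, SRCAP, ZNHIT1 and YEATS4 were still called, while CHRAC1 (-0.48, adjusted p = 0.0514), BAZ1B (-0.51, adjusted p = 0.0649), BPTF (-0.31, adjusted p = 0.47), ACTR5 (0.54, adjusted p = 0.0931) and DMAP1 (0.21, adjusted p = 0.47) were not.

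Of 15 further SNF2 ATPases, 6 fell and 1 rose. HELLS, a remodeler needed for DNA methylation (-0.84, adjusted p = 0.000234), ERCC6L, a helicase of mitotic chromosomes (-0.71, adjusted p = 0.00103), and the transcription termination factor TTF2 (-0.48, adjusted p = 0.00201) were the lowest. BTAF1, which removes TBP from DNA, rose from 19.5 and 20.5 FPKM to 27.0 and 25.2 FPKM (0.37, adjusted p = 0.0042). None of these 4 genes was called by its most abundant transcript in limma, where HELLS was at -0.32 (adjusted p = 0.262) and the adjusted p of the other 3 lay between 0.0627 and 0.0733. The log2 fold changes of ERCC6L, TTF2 and BTAF1 were the same there as in the gene fit (-0.71, -0.48 and 0.37).

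Over all 6 lists, 40 of 94 genes tested fell (42.6%, against 23.8% of all genes) and 6 rose (6.38%, against 18.5%). Their median log2 fold change was -0.19, the same as that of the CHD genes. The lists were drawn up with earlier results of these data known, so these shares are a description and no evidence on remodelers. They were also not matched to all genes for expression level. Only SUPT16H and SMARCE1 among these 94 genes were below -1 on the log2(FPKM + 1) scale, which understates changes of low genes. ERCC6L kept 45.9% of its control level, against 47.2% for CHD3. Its log2 fold change was -1.06 with a pseudocount of 0.1 and -1.12 with a pseudocount of 0.01. Without sh-CEBPG#3 replicate 2 the count of lower genes was 26, and by the most abundant transcript 12 were lower and 0 higher in limma (6 higher at an unadjusted p under 0.05).

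**Figure D4:**
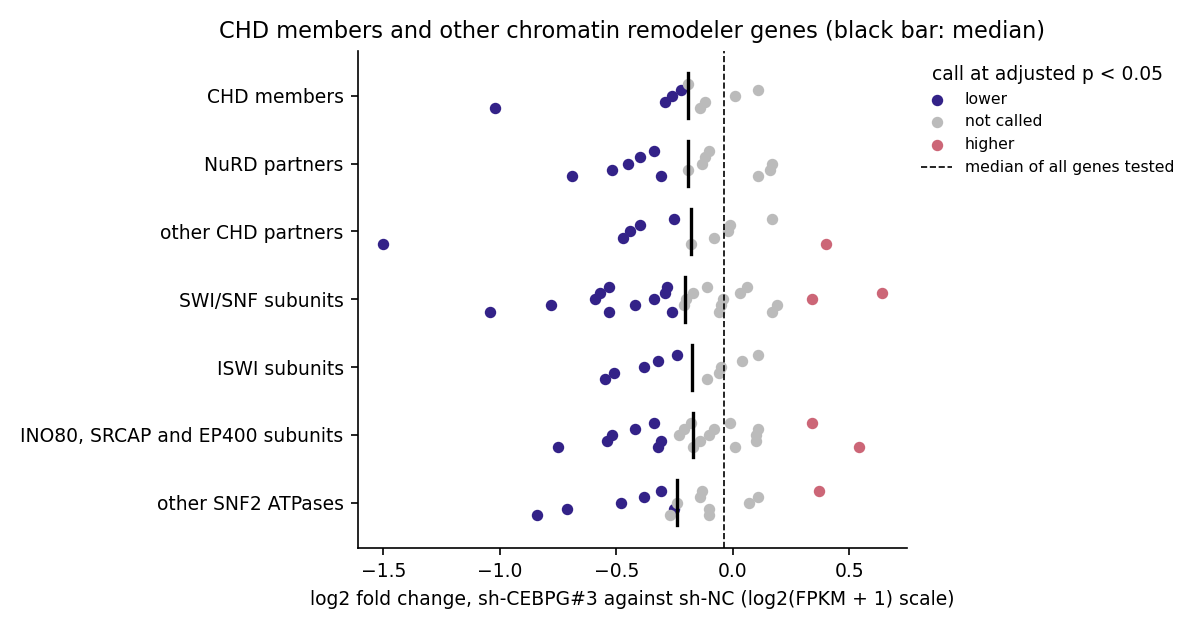
Log2 fold change of sh-CEBPG#3 against sh-NC (log2(FPKM + 1) scale) for the CHD members and the 6 lists, with 1 point per gene, colored by its call, a black bar at the median of each row and a dashed line at the median of all genes tested (-0.038). The medians of the 7 rows lie between -0.24 and -0.17, and CHD3, SMARCE1 and SUPT16H are the 3 points below -1.

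The genes whose values ran most like CHD3 were found by the Euclidean distance between log2(FPKM + 1) values, each centred on the gene's mean over the 4 libraries, among 5013 other genes whose mean reached 10 FPKM. The nearest was SMARCE1 (distance 0.0117), with 41.4 and 43.9 FPKM in sh-NC cells and 20.6 and 19.9 FPKM in sh-CEBPG#3 cells. ZNF395 (0.0235), ABCB10 (0.0287), SAE1 (0.0287) and MCM4 (0.0382) followed, and between 46.7% and 48.7% of the control level remained in these 5 genes. With 4 libraries in 2 groups, this likeness is mainly that of the size of the decrease.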

How the data were processed

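RNA-seq libraries of MV4-11 cells were compared, 2 with sh-NC and 2 with sh-CEBPG#3. The authors filtered the reads, mapped them (HISAT2 2.0.5 and hg38 per the submitters' processing notes) and deposited FPKM values per RefSeq transcript. The program that gave FPKM and the annotation release are not given in the sources used here. As FPKM carries no counts, the depth is unknown, no count test (such as that of the study) was run, and no detection limit is given.

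Of 28780 transcripts, 28581 have values. These were summed by symbol into 16490 genes, and the 12142 with a mean of at least 0.5 FPKM were tested as log2(FPKM + 1) with limma 3.58.1 in R 4.3.3 (eBayes with a trend, Benjamini-Hochberg adjustment), which understates changes of low genes. The fit was checked on simulated data. Members and lists were chosen with earlier results of these data known. Named in the lists were all NuRD partners and, elsewhere, up to 3 called genes per direction with the largest change. With 2 libraries per group, p-values rest on limma's variance model. Alternatives were other pseudocounts, filters and scalings, single transcripts, a replicate block and leaving out each library. Positions are from GENCODE v44. One of the marker genes is not reported here.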

Additional observations from a re-analysis of the deposited data

How the results depend on the processing

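CHD3 kept its direction under all alternatives run, and its call under all those that kept the 4 libraries. Its log2 fold change was -1.07 to -0.98 when 1 library was left out. The family was chosen by this decrease in these same libraries, so the repeated call is a description and no further support. The count of CHD members called lower was 4, and it was 1 without a filter on low values, 1 with single transcripts, 2 with the replicate block and 1 to 3 with each library left out. No member was called higher by limma under any alternative (at most 1 at an unadjusted p under 0.05). In the 6 lists, single transcripts gave 12 genes lower and 0 higher in limma (6 higher at an unadjusted p under 0.05), against 40 and 6, and leaving out a library gave 26 to 43 lower. The replicate block gave 36 lower and 6 higher in these lists. Calls over all features changed as well. In the reported fit 2884 of 12142 genes were lower and 2244 higher. Without a filter on low values 2232 of 16490 genes were lower and 1861 higher, and with the replicate block 2673 were lower and 2088 higher. Single transcripts gave 645 lower and 640 higher of 18624 transcripts. Same-numbered libraries deviated with a correlation of 0.0606 over genes. With 2 libraries per group this value cannot exclude pairing, and the labels do not tell whether the numbers pair libraries. The sign turned for CHD6 (0.01), to -0.0088 with equal totals and from -0.08 to 0.11 with a library left out, for CHD8 (0.11), to -0.31 with its most abundant transcript, for ZMYND8 (0.11), to -0.77 likewise, and for CDK2AP1 (-0.12), from -0.29 to 0.06 with a library left out. None of these 4 genes was called in the reported fit. Of the members' single values under the alternatives, 87 kept direction and call, 17 lost the call and 4 turned sign. The losses of the call all fell on CHD1L, CHD4 and CHD7, and a member uncalled in both fits counted as kept. For all of these changes the cause was not tested. A fit that leaves out a library assumes that the lone library of its group varies like the others. Shares of fragments in place of FPKM were not run, as no lengths of the RefSeq transcripts were used.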

Other observations

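The exchange between CHD8 transcripts was set beside all genes with at least 2 listed transcripts and a mean of at least 5 FPKM, a comparison chosen after the values of CHD8 were seen. Of 4032 such genes, 47 (1.17%) had a transcript whose share of the gene differed by at least 30 percentage points between the libraries of sh-NC and also between those of sh-CEBPG#3. In a typical gene the largest difference was 5.34 points between the sh-NC libraries and 5.16 points between the sh-CEBPG#3 libraries (medians). CHD8 was the only one of 5 CHD genes in this set that did so, and SMARCB1, a SWI/SNF core subunit, the only one of 51 genes of the 6 lists. For SMARCB1 the transcript NM_003073 held 3.25% and 66.9% in sh-NC cells and 98.7% and 9.05% in sh-CEBPG#3 cells. Summed over transcripts, the sh-NC libraries of the 47 genes differed by a median factor of 1.07. How the deposited values were divided among transcripts is not given in the sources used here, and whether this division has a part in the exchange was not tested.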
